A study of Mus musculus with 12 samples.

Results

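The endothelial cells that line the sinusoids of the liver carry a characteristic set of surface receptors and secreted proteins, and 10 genes of that set (Stab1, Stab2, Lyve1, Clec4g, Fcgr2b, Dnase1l3, Oit3, Gpr182, Calcrl and Kdr) were followed in liver RNA from mice with a defect of DNA repair. The genes were taken by symbol from the tables of estimated counts and of TPM, which hold 57180 genes, and all 10 were among the 19350 genes tested. Whole livers of 12 mice were sequenced as stranded total RNA depleted of ribosomal RNA, with 3 females and 3 males in each of 2 genotype groups. Every mouse lacked Csa (listed as Ercc8), the gene mutated in Cockayne syndrome group A, and had received as a newborn, by injection into the brain ventricles, an AAV9 vector with a human CSA cDNA under the ubiquitous CBA promoter. The KO mice are written Csa-/-;Xpa+/+ in the sample labels but are described in the study's results as CX mice, Csa-/- Xpa-/-, taken at the humane endpoint. The Het mice, Csa-/-;Xpa+/-, were littermates of matched age. No age in days is given for these livers in the sources used here, and the labels' names KO and Het are used throughout.

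Sinusoidal endothelium is unlike that of most other vessels. Its cells are perforated by open pores, have no continuous basement membrane, and clear macromolecules, immune complexes and bacterial products from portal blood through scavenger receptors. They also exchange signals with hepatocytes and stellate cells, and depend on VEGF from hepatocytes to keep their pores. In RNA from whole liver, fewer cells of a type and less RNA of its genes per cell cannot be told apart.

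Xpa stood at 0.992 to 1.83 CPM (counts scaled to a common library total, with TMM factors) in the 6 KO livers and at 3.1 to 6.34 CPM in the 6 Het livers, without overlap. KO livers thus held less Xpa RNA than Xpa+/- livers. That goes with the Xpa-/- of the study's results and against the Xpa+/+ of the labels. Ercc8 stood at 14.8 to 34 CPM in KO and 5.1 to 8.68 CPM in Het livers, and whether reads of the human cDNA entered these counts was not tested. Each liver had between 30044812 and 43634073 counts. All 10 sinusoidal genes were detected in every liver, and their summed level ran from 194 to 505 CPM, beside 59300 to 130000 CPM for 9 hepatocyte markers. The liver KO_M_122 stood apart from the other male KO livers. It was the highest of the 3 for all 10 genes, and also for the summed pan-endothelial markers (373 CPM against 205 and 219), stellate cell markers (309 against 161 and 184) and macrophage markers (586 against 205 and 334). Het_M_125 was the lowest of the 3 male Het livers for all 10 genes.

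Promoter sequences from RefSeq (GRCm38.p6) were held for 6 of the 10 genes. Each was found base for base in GRCm39, once on the gene's strand of its own chromosome, and other chromosomes were not searched. Of the 250 bases upstream of the RefSeq start, the stretch ahead of the canonical GENCODE M39 transcript is printed for Calcrl, Kdr and Clec4g, which were lower in KO livers, and for Stab1, the called gene with the smallest change. All 4 lie on the minus strand, and the bases printed are those of the coding strand. The Kdr stretch lies within the annotated Kdr gene (chr5:76093487-76139884), with 0 bases in any of its exons. Capitals mark the core letters of ETS factor sites (GGAAG, or CTTCC on the other strand) and of SOX factor sites (AACAAT or ATTGTT), since factors of both families act widely in endothelium.
Calcrl, chr2:84255756-84255860: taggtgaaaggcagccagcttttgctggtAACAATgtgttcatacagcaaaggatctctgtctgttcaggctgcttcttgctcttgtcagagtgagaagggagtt
Kdr, chr5:76139119-76139365: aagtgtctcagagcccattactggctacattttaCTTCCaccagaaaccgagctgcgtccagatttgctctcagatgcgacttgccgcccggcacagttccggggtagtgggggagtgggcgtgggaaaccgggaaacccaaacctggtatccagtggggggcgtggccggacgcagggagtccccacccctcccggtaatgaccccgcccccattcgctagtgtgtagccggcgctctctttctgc
Clec4g, chr8:3770672-3770901: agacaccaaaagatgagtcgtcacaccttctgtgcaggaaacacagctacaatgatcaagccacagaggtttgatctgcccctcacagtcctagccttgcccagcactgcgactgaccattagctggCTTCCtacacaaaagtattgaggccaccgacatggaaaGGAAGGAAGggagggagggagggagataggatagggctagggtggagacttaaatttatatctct
Stab1, chr14:30890599-30890848: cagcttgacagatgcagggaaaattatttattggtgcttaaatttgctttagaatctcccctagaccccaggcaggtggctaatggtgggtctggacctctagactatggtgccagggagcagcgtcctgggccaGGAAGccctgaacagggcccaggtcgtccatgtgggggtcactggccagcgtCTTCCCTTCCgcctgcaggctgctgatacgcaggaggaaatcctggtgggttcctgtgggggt
The printed stretches hold 3 ETS cores for Clec4g, 3 for Stab1, 1 for Kdr and 0 for Calcrl, and the SOX core occurs only in that of Calcrl. Over the full 250 bases, each of the 6 promoters held at least 1 ETS core, as did 64.1% of the 32851 promoters in the RefSeq table. The SOX core was present in 9.42% of all promoters. The GATA core (GATAA or TTATC), present in 22.6%, occurred in 0 of the 6. Overlapping copies were counted apart. These are matches of letters and not binding sites.

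Most of the 10 genes were lower in KO livers. With both sexes together, 8 of 10 were called lower and 0 higher at an adjusted p under 0.05, against 10.2% of all genes tested called lower and 12.2% called higher. The 10 genes were chosen with earlier results of these data known. Most of them also varied together from liver to liver, so the 8 calls are not 8 separate results. The called genes stood at 0.39 (Dnase1l3) to 0.738 (Stab1) times the Het level, whereas Stab2 and Lyve1 were not called. The median log2 fold change, KO minus Het, was -0.88 for the 10 genes and 0.018 for all genes tested. Calcrl was the single gene of the 10 whose 6 KO livers all lay below all 6 Het livers, a pattern held by 4.64% of all genes.

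**Figure D1:**
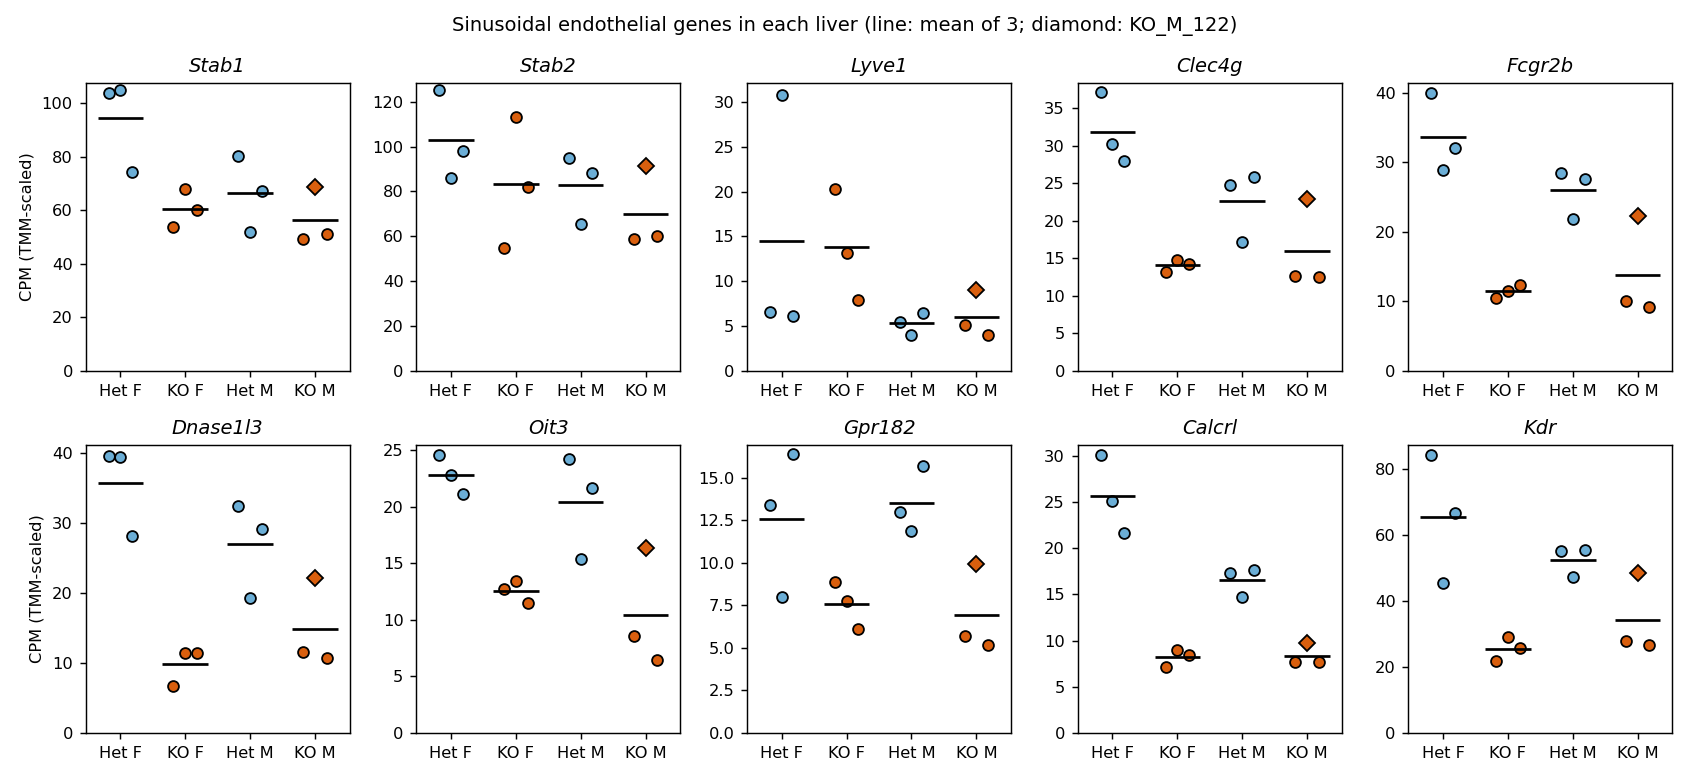
Level of each of the 10 genes in every liver (CPM on a linear axis from 0) by genotype and sex, with a line at the mean of 3 livers and a diamond for KO_M_122. Calcrl separates the genotypes in both sexes (7.19 to 9.79 CPM in KO and 14.7 to 30.1 CPM in Het livers), and KO_M_122 is the highest male KO liver in every panel.

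Receptors for signals were considered first. Calcrl encodes the calcitonin receptor-like receptor, which binds adrenomedullin or CGRP according to the RAMP protein it is paired with (16 exons, chr2:84160957-84255755 in GRCm39, minus strand). It was at 30.1, 25.1 and 21.7 CPM in Het females and at 7.19, 8.95 and 8.39 CPM in KO females. Male livers held 17.3, 14.7 and 17.7 CPM in Het and 7.68, 9.79 and 7.69 CPM in KO. The KO livers thus shared a narrow range in both sexes, while Het females were higher than Het males. The log2 fold change was -1.31 ± 0.115 (SE, adjusted p = 3.73e-05) over both sexes, -1.64 ± 0.164 (adjusted p = 0.000349) in females and -0.98 ± 0.162 (adjusted p = 0.00493) in males.

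Kdr encodes VEGF receptor 2, the main receptor through which VEGF acts on endothelium (30 exons, chr5:76093487-76139884, minus strand). Its levels in females were 84.3, 45.3 and 66.8 CPM in Het and 21.7, 29.1 and 25.7 CPM in KO livers, which did not overlap. In males, Het livers at 55, 47.3 and 55.4 CPM overlapped KO livers at 27.9, 48.6 and 26.6 CPM through KO_M_122 alone. Over both sexes Kdr fell, with a log2 fold change of -0.99 ± 0.18 (adjusted p = 0.0033). The change was -1.36 ± 0.257 (adjusted p = 0.0103) in females and -0.61 ± 0.253 (adjusted p = 0.164) in males.

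Gpr182, an atypical chemokine receptor of sinusoidal and lymphatic endothelium (2 exons, chr10:127580924-127587635, minus strand), had the same direction. Het females had 13.4, 8.01 and 16.4 CPM and KO females 8.86, 7.77 and 6.09 CPM, so that 1 Het female lay within the KO range. Het males at 13, 11.9 and 15.7 CPM were all above KO males at 5.71, 9.94 and 5.19 CPM. Gpr182 was lower over both sexes, at -0.84 ± 0.204 (adjusted p = 0.0129), and in neither sex alone was it called (-0.73, adjusted p = 0.118 in females, and -0.96, adjusted p = 0.066 in males).

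The secreted products were lower in KO livers as well. Dnase1l3 encodes a secreted nuclease that degrades DNA in chromatin and on circulating particles (8 exons, chr14:14475200-14505240, plus strand). Het females had 39.6, 39.5 and 28.1 CPM and KO females 6.66, 11.4 and 11.5 CPM. Among males, Het livers stood at 32.5, 19.3 and 29.2 CPM and KO livers at 11.6, 22.1 and 10.7 CPM, with KO_M_122 above the lowest Het male. The log2 fold change of -1.36 ± 0.221 (adjusted p = 0.00198) was the lowest of the 10 genes, with -1.85 ± 0.317 (adjusted p = 0.00734) in females and -0.86 ± 0.31 (adjusted p = 0.118) in males.

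Oit3, a secreted zona pellucida domain protein used as a marker of this endothelium (9 exons, chr10:59258780-59277702, minus strand), had close log2 fold changes in females and males (difference -0.1 ± 0.393, adjusted p = 0.956). Het females had 24.6, 22.8 and 21.1 CPM and KO females 12.7, 13.4 and 11.5 CPM, without overlap. Het males at 24.2, 15.4 and 21.7 CPM overlapped KO males at 8.6, 16.4 and 6.41 CPM, again through KO_M_122. The log2 fold change was -0.91 ± 0.199 (adjusted p = 0.00814) over both sexes, and neither -0.86 in females (adjusted p = 0.0683) nor -0.96 in males (adjusted p = 0.0621) was called.

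Scavenger and clearance receptors divided into those that fell and those that did not. Fcgr2b encodes the inhibitory Fc receptor for IgG, with which sinusoidal endothelium takes up small immune complexes (7 exons, chr1:170786186-170804177, minus strand). Its counts were not whole numbers in any of the 12 livers, so part of them are reads that the authors' quantification shared out with other transcripts. Het females had 39.9, 28.9 and 32.1 CPM and KO females 10.5, 11.5 and 12.4 CPM. Het males had 28.4, 21.8 and 27.6 CPM and KO males 9.99, 22.2 and 9.26 CPM, so KO_M_118 and KO_M_136 were below every Het male, while KO_M_122 lay within the range of the Het males. Fcgr2b changed by -1.23 ± 0.201 on the log2 scale (adjusted p = 0.00192), by -1.55 ± 0.287 in females (adjusted p = 0.00975) and by -0.91 ± 0.283 in males (adjusted p = 0.0764). The gene is also used by B cells and macrophages. Summed B cell markers (4 genes) were at 0.901 to 2.59 CPM in Het and 0.217 to 3.03 CPM in KO livers, and summed macrophage markers (10 genes) at 147 to 391 CPM in Het and 205 to 611 CPM in KO livers. Their part in the Fcgr2b result was not tested. Oit3 counts were likewise not whole in all 12 livers.

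Clec4g encodes LSECtin, a C-type lectin of sinusoidal endothelium (9 exons, chr8:3757064-3770671, minus strand). KO females, at 13.2, 14.8 and 14.3 CPM, were close together and below Het females at 37.2, 30.2 and 28 CPM. Het males at 24.8, 17.2 and 25.8 CPM overlapped KO males at 12.6, 22.9 and 12.5 CPM. The change was -0.83 ± 0.165 (adjusted p = 0.0049) over both sexes, -1.17 ± 0.235 (adjusted p = 0.0131) in females and -0.5 ± 0.233 (adjusted p = 0.217) in males.

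Stab1 and Stab2 encode the stabilins, large scavenger receptors that take up hyaluronan, modified lipoproteins and other waste (69 exons each, chr14:30860970-30890598 and chr10:86675054-86843889, both on the minus strand). Stab1 was at 104, 105 and 74.5 CPM in Het females and 53.7, 68 and 60.2 CPM in KO females, without overlap. In males the ranges overlapped, with 80.2, 52 and 67.2 CPM in Het and 49.4, 68.6 and 51.3 CPM in KO livers. The fall of Stab1 was the smallest among the called genes (-0.44 ± 0.138, adjusted p = 0.0395), and the call was lost in 8 of the 12 fits that left out 1 mouse, with an adjusted p of up to 0.0874. Stab2 was at 125.02, 86.1 and 97.8 CPM in Het females and 55, 113 and 82 CPM in KO females. Het males had 94.7, 65.7 and 88.4 CPM and KO males 58.6, 91.3 and 60.1 CPM. Neither sex separated the genotypes for Stab2, and the log2 fold change of -0.28 ± 0.186 (adjusted p = 0.311) did not pass the test.

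Lyve1, a hyaluronan receptor of sinusoidal and lymphatic endothelium and of some macrophages (6 exons, chr7:110448585-110462460, minus strand), varied most from mouse to mouse. Het females had 6.59, 30.8 and 6.09 CPM, the high value coming from Het_F_115, and KO females 20.3, 13.1 and 7.94 CPM. Males were low in both genotypes, at 5.44, 4.03 and 6.46 CPM in Het and 5.12, 9.04 and 3.98 CPM in KO livers. The SD over the 6 Het livers was 104% of their mean. The log2 fold change was 0.05 ± 0.428 (adjusted p = 0.943), and without Het_F_115 it was 0.64, also without passing the test.

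In females alone, 5 of 10 genes were called lower (Clec4g, Fcgr2b, Dnase1l3, Calcrl and Kdr), against 5.10% of all genes. In males alone 1 of 10 (Calcrl) was called lower, against 2.98% of all genes. The median of the 10 genes was -1.02 in females and -0.74 in males. In females 7 of 10 genes had KO livers without overlap below Het livers, against 14.7% of all genes, and in males 2 of 10 (Gpr182 and Calcrl), against 15.4%. The male count changed most with KO_M_122, the highest male KO liver for all 10 genes. Leaving out a liver picked by these same values can only lower the male KO means, so the fit without it is a description. In every other fit that left out 1 mouse, 1 or 2 of the genes were called lower in males. Without KO_M_122, 7 of 10 genes were called lower in males (all but Stab1, Stab2 and Lyve1), against 1.79% of all genes tested, and the male median was -1.03. Fcgr2b then stood at -1.43 (adjusted p = 0.00236), Oit3 at -1.43 (adjusted p = 0.00516) and Kdr at -0.95 (adjusted p = 0.0409).

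The log2 fold change was below 0 in both sexes and further below in females for 7 of the 10 genes, against 18.7% of all genes, but the difference between the sexes did not pass the test for any. Both counts take in the fall itself as well as its size in each sex, so they do not measure a female excess alone. The interaction of genotype and sex gave 0 of 10 calls with edgeR's quasi-likelihood test and 0 with DESeq2, against 0.0465% of all genes with edgeR. At an unadjusted p under 0.05 there were 2, Dnase1l3 (difference 0.99 ± 0.436, adjusted p = 0.527) and Calcrl (0.66 ± 0.227, adjusted p = 0.45), against 9.28% of all genes. For the mean difference between males and females, 0 of 10 genes were called by edgeR, against 1.02% of all genes, 3 had an unadjusted p under 0.05 (Lyve1, Calcrl and Stab1), against 13.8% of all genes, and DESeq2 called 1. The largest of these was Lyve1, lower in males at -1.31 ± 0.437 (adjusted p = 0.216).

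**Figure D2:**
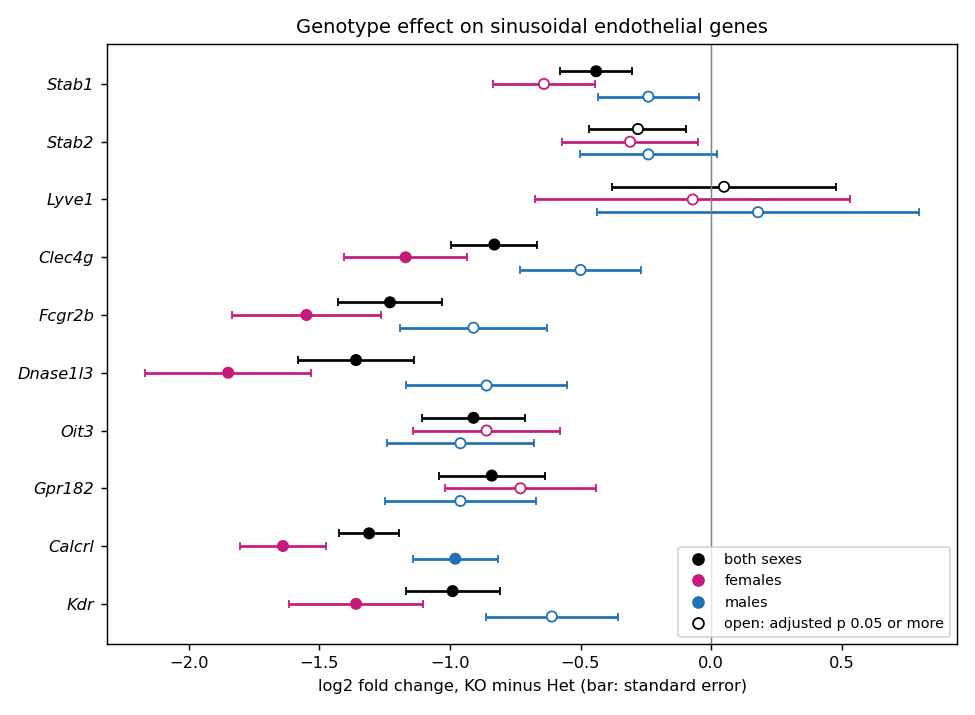
Log2 fold change of KO minus Het livers (horizontal axis) for each gene over both sexes, in females and in males, with bars for the standard error and filled points for an adjusted p under 0.05. Black points are filled for 8 of 10 genes, female points for 5 and male points for 1 (Calcrl), and Lyve1 lies near 0 with the widest bars.

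TPM values, which are scaled by transcript length, allow levels to be set side by side between genes. In Het females Clec4g was the most abundant of the 10 (22.8 ± 3.65 TPM, SD, n = 3), followed by Stab1 (17.1 ± 5.54), Fcgr2b (16.5 ± 2.38) and Stab2 (14 ± 1.27), and Gpr182 was last (2.54 ± 0.833). Stab1 and Fcgr2b differed by less than their spread, as did all neighbours from Kdr down. In Het males the order was led by Clec4g (14 ± 3.33 TPM) and Fcgr2b (11 ± 1.55), whose gap was below the larger SD. In KO females Stab1 (10 ± 0.418 TPM), Stab2 (9.95 ± 2.94) and Clec4g (9.54 ± 0.445) stood together at the top, and Dnase1l3 (1.57 ± 0.37) had moved beside Gpr182 (1.47 ± 0.366) at the bottom. KO males had Clec4g (10.3 ± 3.6), Stab1 (8.51 ± 0.832) and Stab2 (8.48 ± 1.62) first, with no gap above the spread among them. The 7SL and 7SK RNA genes (Rn7s1, Rn7s2 and Rn7sk) took 50 to 59.9% of the TPM in each library, so TPM levels are low for all other genes.

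Livers differed within their own group in a shared way. After the mean of each group of 3 was subtracted from log2 CPM, the 36 pairs among the 9 genes other than Lyve1 had a median Pearson r of 0.754 over the 12 livers (range 0.064 to 0.936), and the 9 pairs with Lyve1 had a median of 0.137. Clec4g followed the mean of the other genes most closely (r = 0.977), and Gpr182 (0.453) and Lyve1 (0.157) least. These are descriptions over 12 livers that share library scaling, and KO_M_122 lay above its group mean for all 10 genes. The 10 genes outside the set whose deviations were most like the mean of the set were Plekhg1 (r = 0.989), Cd300lg (0.976), Tpbgl (0.973), Wls (0.972), Fcna (0.956), Eng (0.955), Gimap6 (0.947), Pam (0.935), Chsy1 (0.934) and Aqp1 (0.934). Of these 10 genes 6 were called lower in KO livers and 0 higher, beside 10.2% of all genes called lower. Among the 6 were Plekhg1 (-0.73 ± 0.178, adjusted p = 0.0131), Cd300lg (-0.79 ± 0.212, adjusted p = 0.0201) and Aqp1 (-0.91 ± 0.19, adjusted p = 0.00669), and Tpbgl, Fcna, Gimap6 and Chsy1 were not called.

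**Figure D3:**
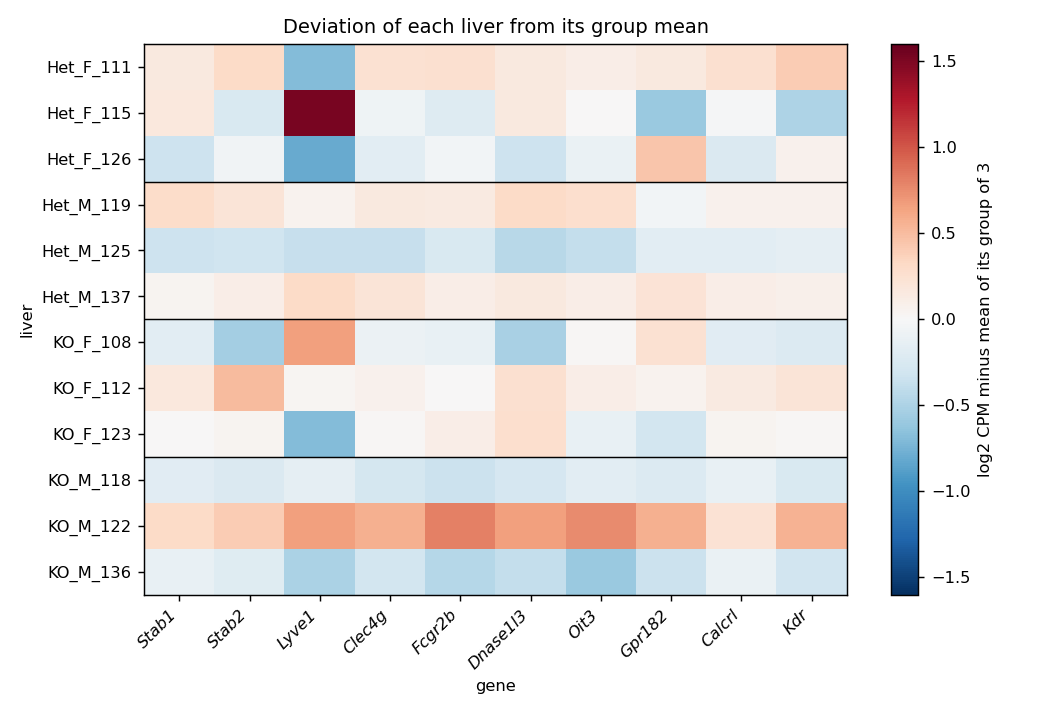
Deviation of each liver (rows) from the mean of its group of 3 for each gene (columns), in log2 CPM, with red above and blue below the group mean. The row of KO_M_122 is above its group mean for all 10 genes, that of Het_M_125 below for all 10, and the single darkest cell is Lyve1 in Het_F_115.

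Other endothelial genes were counted from the same fit. Of 12 further genes enriched in sinusoidal endothelium 7 were called lower and 0 higher (median -0.6), among them F8, coagulation factor VIII (-1 ± 0.138, adjusted p = 0.000683), Ehd3, an endocytic trafficking protein (-0.92 ± 0.166, adjusted p = 0.00314), and Maf, a transcription factor of sinusoidal identity (-0.39 ± 0.0891, adjusted p = 0.00984). Of 26 genes shared by most endothelium 11 were lower and 0 higher (median -0.48), led by Myct1 (-1.16 ± 0.226, adjusted p = 0.00469), Sox18 (-1.21 ± 0.241, adjusted p = 0.00496) and Ushbp1 (-0.72 ± 0.153, adjusted p = 0.00681). The junction proteins Pecam1 (-0.49 ± 0.195, adjusted p = 0.0911) and Cdh5 (-0.1 ± 0.192, adjusted p = 0.758) were not called. These counts and those of the lists that follow stand beside 10.2% of genes called lower and 12.2% called higher overall. When 1 mouse was left out, the lower counts ran from 6 to 11 of 12 and from 10 to 16 of 26. The highest of each came from the fit without KO_M_122.

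Of 14 tested genes of continuous, venous or activated endothelium, 3 were higher, Ly6c1 (2.33 ± 0.342, adjusted p = 0.000956), Fabp4 (0.71 ± 0.215, adjusted p = 0.034) and Esm1 (0.66 ± 0.21, adjusted p = 0.0405), and 1 was lower, Ackr1 (-1.1 ± 0.261, adjusted p = 0.0119), with a median of 0.58, beside 12.2% of all genes called higher and 10.2% lower. The higher count ran from 1 to 4 when 1 mouse was left out, with 1 in the fits without Het_M_125 or without KO_F_112. The log2 fold change of Esm1 had opposite signs in the sexes, with 0.338 to 0.475 CPM in Het and 1.05 to 2.07 CPM in KO females (1.87 ± 0.301, adjusted p = 0.00515), but 0.846 to 1.31 CPM in Het and 0.609 to 0.758 CPM in KO males (-0.54 ± 0.296, adjusted p = 0.293). The interaction of genotype and sex was called for 0 of these 14 genes, Esm1 included. Ly6c1 was at 0.032 to 0.281 CPM in Het livers and at 0.67 to 1.22 CPM in KO livers. Cd34, a marker of capillarized sinusoids, had a log2 fold change of 0.39 ± 0.235 (adjusted p = 0.262).

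Of 17 endothelial signals and zonated genes 5 were lower and 0 higher (median -0.53). Ltbp4, a binding protein of latent TGF-beta, had the smallest p (-1.73 ± 0.179, adjusted p = 0.000124), followed by Cdh13 (-1.18 ± 0.194, adjusted p = 0.00185) and Ntn4 (-0.61 ± 0.157, adjusted p = 0.0173). The Wnt pathway ligand Wnt2 (-0.64 ± 0.225, adjusted p = 0.06) and its enhancer Rspo3 (-0.34 ± 0.162, adjusted p = 0.157), with which central endothelium supports pericentral hepatocytes, were not called over both sexes, and Wnt2 was called lower in females (-1.17 ± 0.319, adjusted p = 0.0379). The count for this list ran from 3 to 9 when 1 mouse was left out, with 9 in the fit without KO_M_122 and 3 in those without KO_F_123, KO_M_118 or KO_M_136.

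The partners of Kdr and Calcrl were examined from lists of their pathways. Of 8 further VEGF ligands and receptors tested, the co-receptors Nrp2 (-1.42 ± 0.169, adjusted p = 0.000306) and Nrp1 (-0.63 ± 0.157, adjusted p = 0.0145) were lower and the ligand Vegfd higher (1.01 ± 0.321, adjusted p = 0.0408), beside 10.2% of all genes called lower and 12.2% higher. The Vegfd call was lost in 9 of the 12 fits that left out 1 mouse, all but those without Het_F_126, KO_F_123 or KO_M_122, and the lower count was 4 without KO_F_112 or without KO_M_122. Flt1, VEGF receptor 1, was at -0.51 ± 0.187 (adjusted p = 0.0718). Vegfa, the principal ligand of Kdr, was at 0.23 ± 0.183 (adjusted p = 0.387). Of 4 adrenomedullin and CGRP genes tested out of 7 listed, the ligand Adm was higher (1.03 ± 0.28, adjusted p = 0.0219), Ramp2, the partner that makes Calcrl an adrenomedullin receptor, was lower (-0.63 ± 0.187, adjusted p = 0.0304), and Ramp3 (0.97 ± 0.425, adjusted p = 0.114) was not called. The call for Ramp2 was lost in 7 of the 12 fits that left out 1 mouse, all but those without Het_F_115, Het_F_126, Het_M_125, KO_F_123 or KO_M_122. Adm stood at 1.18, 1.76, 0.886, 1.23, 0.358 and 0.8 CPM in the 6 Het livers and at 2.42, 3.44, 2.2, 1.43, 2.33 and 1.25 CPM in the 6 KO livers, so the genotypes did not overlap within either sex, and overlapped over both sexes because Het_F_115 lay above 2 KO males.

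**Figure D4:**
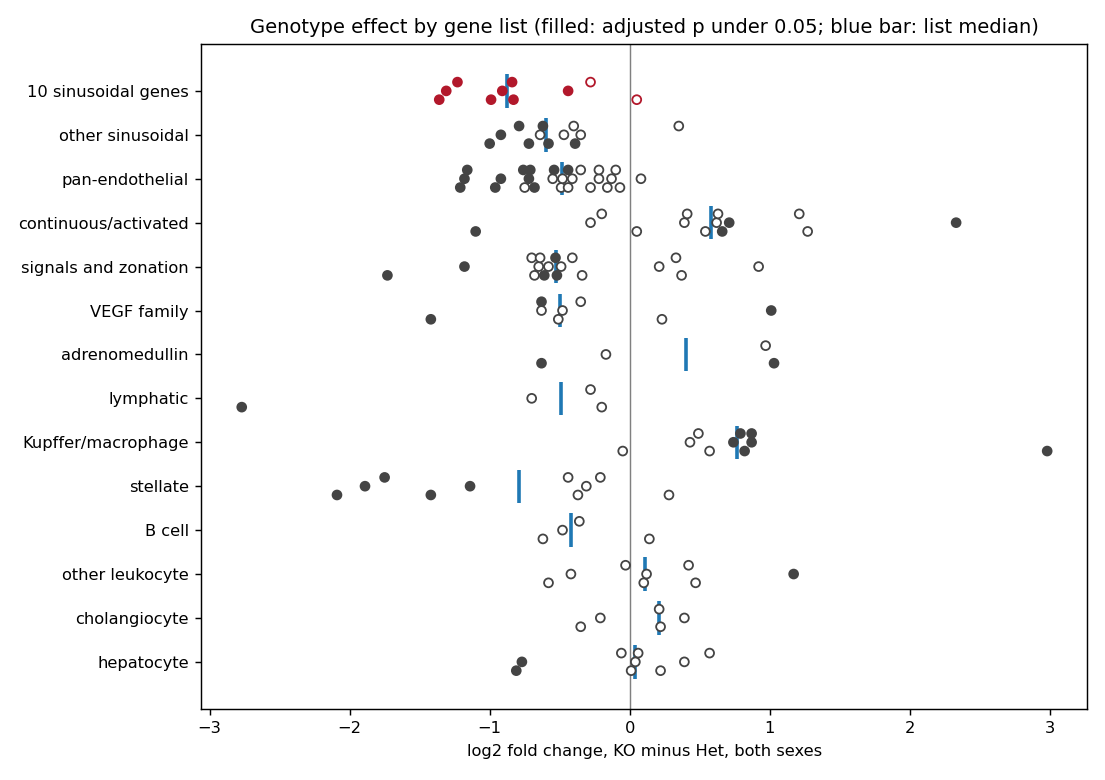
Log2 fold change of KO minus Het livers over both sexes (horizontal axis) for each tested gene of each list (rows), with filled points for an adjusted p under 0.05 and a blue bar at the list median. The 10 sinusoidal genes have the lowest median (-0.88), stellate cell markers are next (-0.79), and macrophage markers are on the other side of 0 (0.77). In females alone, which are not drawn, stellate cell markers (-1.11) and B cell markers (-1.17, with 0 called) had lower medians than the 10 genes (-1.02).

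Markers of other liver cells moved with genotype too. Of 10 stellate cell and fibroblast markers 5 were lower and 0 higher (median -0.79), with summed levels of 161 to 309 CPM in KO and 294 to 567 CPM in Het livers. Reln (-1.75 ± 0.192, adjusted p = 0.000188), Lrat, which stores vitamin A in stellate cells (-1.89 ± 0.212, adjusted p = 0.000238), and Ecm1 (-1.14 ± 0.156, adjusted p = 0.000642) had the smallest p. Of 10 Kupffer cell and macrophage markers 6 were higher and 0 lower (median 0.77), beside 12.2% of all genes called higher, with sums of 205 to 611 CPM in KO and 147 to 391 CPM in Het livers. The scavenger receptor Marco (2.98 ± 0.571, adjusted p = 0.00618) and Vsig4 (0.87 ± 0.199, adjusted p = 0.0103) were among them. In females 0 of the 10 were called (median 0.38) and in males 3 were higher (median 1.08). The count over both sexes ran from 3 to 8 when 1 mouse was left out, and was 4 without KO_M_122. Of 9 hepatocyte markers tested, 2 (Ttr and Cyp2e1) were lower and 0 higher, with a median of 0.04. Their summed levels ran from 75200 to 130000 CPM in KO and from 59300 to 80600 CPM in Het livers, with overlap. The part of these shifts in the results for the sinusoidal genes was not tested.

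The level of each gene relative to a general endothelial gene of the same liver was then compared. The log2 ratio to Pecam1 was lower in KO livers for 5 of 10 genes by an exact two-sided permutation of genotype labels within sex (400 arrangements, smallest possible p = 0.005), with adjustment over the 20 ratios computed. Dnase1l3 relative to Pecam1 changed by -0.86 (adjusted p = 0.0111), Calcrl by -0.78 (adjusted p = 0.0111), Fcgr2b by -0.75 (adjusted p = 0.0111), Oit3 by -0.42 (adjusted p = 0.0455) and Clec4g by -0.31 (adjusted p = 0.02) in this exact test. For Dnase1l3, Calcrl and Fcgr2b the ratios of the 6 KO livers lay below those of all 6 Het livers. Relative to Cdh5, the same 5 genes and Kdr were lower, with changes from -0.71 (Clec4g) to -1.26 (Dnase1l3), with an adjusted p of 0.0111 each from the exact permutation test. Stab1 and Stab2 relative to Pecam1 stood at 0.11 and 0.23 (adjusted p = 0.432 and 0.2, exact permutation). These ratios were chosen after the values were seen, and the changes of Pecam1 and Cdh5 themselves did not pass the test. Mean levels in Het and KO livers were 24.3 and 22.3 CPM for Cdh5, and 17.8 and 12.5 CPM for Pecam1. The 26 genes shared by most endothelium had a median log2 fold change of -0.48, so Cdh5 changed less than most of its list. Ratios to Cdh5 therefore largely repeat the falls already described and are no separate support for them. The 5 genes with lower ratios to Pecam1 had likewise been called lower in these same livers. Their permutation p-values are thus a description and not a fresh test.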

How the data were processed

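The authors ran the nf-core pipeline, with STAR 2.7.9a as aligner on GRCm39 and Salmon 1.10.1 for the genes of GENCODE M34. The deposited tables hold estimated counts per gene, rebuilt estimated counts, and TPM. The deposited TPM have an equal sum in every library and hold no depth. The estimated counts, of which 12% were not whole, were filtered to genes with at least 5 reads, scaled to the median library, in at least 3 samples, then rounded and scaled by TMM. They were fitted with edgeR 4.0.16 (R 4.3.3, quasi-likelihood F test, robust, prior count 2) on means of the 4 groups, as the study's design of genotype, sex and interaction requires. Contrasts were KO minus Het over both sexes and in each sex, the interaction, and sex. A gene was called at a p under 0.05 after Benjamini-Hochberg adjustment over all genes tested. Standard errors come from the F statistic, and the fit was tested on simulated data.

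Mice were grouped by the labels. The members and lists were chosen with earlier results of these data known. All members were described, with up to 3 genes of smallest p per list, a few endothelial genes fixed by name, and the 10 genes most like the members among those with a mean of at least 1 CPM. Esm1 was named after its values were seen. The labels name separate mice. Alternatives were other count tables, filters, scalings, DESeq2 1.42.0, limma 3.58.1 on TPM and leaving out each mouse. Coordinates come from GENCODE M39 on GRCm39, where all 10 gene IDs matched apart from their version. Depth ran from 30044812 to 43634073 counts per liver. The authors' own comparisons were not used.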

Additional observations from a re-analysis of the deposited data

Results flagged for a closer look

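A Dixon test of the highest and the lowest liver was applied to each of the 10 genes in the 6 Het and the 6 KO livers, 20 groups in all, and 5 held a liver far from the others. Chance alone flags about 1 in 20 such groups. The groups pooled both sexes and are not independent, because most of the genes varied together between livers. Of the 5, 4 were the same KO male, KO_M_122. It had 22.9 CPM of Clec4g where the next KO liver had 14.8 CPM, 22.2 CPM of Fcgr2b where the next had 12.4 CPM, 22.1 CPM of Dnase1l3 where the next had 11.6 CPM, and 48.6 CPM of Kdr where the next had 29.1 CPM. Its TMM factor (1.02), its total (33525291 counts) and its Xpa level lay within the range of the other KO livers, while its share of TPM in the 7SL and 7SK RNA genes, 59.9%, was the highest of the 12 libraries. The part of that share in these values was not tested. Het_F_115 had 30.8 CPM of Lyve1, with 6.59 CPM in the next Het liver, and was the lowest Het female for 4 of the 10 genes.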

How the results depend on the processing

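Over the 10 genes, 3 genotype contrasts and 27 alternatives, 758 of 810 log2 fold changes kept their direction and side of the threshold, 13 lost a call, 22 gained 1 and 17 changed sign. All 13 lost calls were Stab1 over both sexes, while the other 7 genes called over both sexes passed in all 27 alternatives. When each mouse was left out in turn, between 7 and 8 genes were called over both sexes, 5 to 6 in females, 1 to 7 in males (7 without KO_M_122, 2 without Het_F_115), and 0 to 0 for the interaction and for sex. At an adjusted p under 0.01, 3 genes were called in females. In males 2 genes were called with the length-scaled counts and 4 with DESeq2, and DESeq2 called 1 gene for sex. The cause was not tested. On log2(TPM + 1), log2(TPM + 0.1) and log2(TPM + 1) without the 7SL and 7SK genes, the last chosen after seeing the data, female Lyve1 turned to 0.1, 0.16 and 0.11, male Stab1 to 0.04, 0.05 and 0.05, and male Stab2 to 0 in each. The effective length relative to its maximum that counts and TPM imply for Stab1 ran from 0.869 to 1 among Het males and from 0.755 to 0.883 among KO males. Leaving out 1 mouse, Lyve1 ran from -0.15 to 0.64 over both sexes, -0.48 to 1.11 in females and -0.22 to 0.4 in males. The Het mice were littermates, but the labels name no litter, so no paired analysis was possible. Under scaling by library size only, the median of all genes was 0.156 for the interaction. With 3 mice per group, a p that misses the threshold does not show that levels were equal, and in whole liver RNA a shift in cell makeup and a shift per cell give the same counts.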

Other observations

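Vwf, the clotting factor of large vessel endothelium, was high in 2 KO females. KO_F_112 had 214 CPM and KO_F_108 49.2 CPM, whereas the third KO female had 9.28 CPM and the other 9 livers lay between 6.35 and 13 CPM. Its log2 fold change was 2.92 ± 0.822 in females (adjusted p = 0.0489) and -0.39 ± 0.777 in males (adjusted p = 0.807). The interaction of genotype and sex was not called for Vwf. The same 2 KO females had the highest Vegfa of the 12 livers, at 239 and 222 CPM, against 114.9 CPM in KO_F_123 and 78.4 to 144 CPM in the Het livers. Neither the difference between these livers nor its relation to the sinusoidal genes was tested.

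Of 4 lymphatic endothelial markers 1 was lower, Ccl21a, a chemokine of lymphatic vessels (-2.77 ± 0.369, adjusted p = 0.000145), at 0.234 to 0.713 CPM in Het livers and 0 to 0.0583 CPM in KO livers, with 0 counts in 3 of them, so that the fitted value depends on the prior count. Prox1, which hepatocytes also express, was at -0.7 ± 0.269 (adjusted p = 0.0864). Of 8 other leukocyte markers 1 was higher, S100a8 of neutrophils (1.17 ± 0.343, adjusted p = 0.0299), and 0 were lower, beside 12.2% of all genes called higher. The S100a8 call was lost in 7 of the 12 fits that left out 1 mouse, all but those without Het_F_115, Het_M_119, KO_F_112, KO_F_123 or KO_M_136. Of 4 B cell markers and 5 cholangiocyte markers 0 were called by edgeR, and 0 had an unadjusted p under 0.05.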
